A study of Mus musculus with 4 samples.

Results

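RNA from whole mouse testes at postnatal day 25 was described here for 265 genes whose symbol, in the authors' expression table, still ends in Rik. These are 265 of the 988 genes of that table (26.8%), and within it they were chosen by the letters of their names alone. The table itself holds only genes that the authors had selected for a difference in these same data. Rik genes not so selected are absent from it. The 4 libraries are those of 2 mice labelled Ptbp2-deficient (cKO, read as conditional knockout) and of 2 wild-type (WT) mice, each library from 1 mouse and all of the C57BL/6 strain. The Cre driver, and so the cells in which Ptbp2 was deleted, is not given in the sources used here. Ptbp2 encodes a polypyrimidine tract binding protein that controls which exons are joined in a transcript, and the study set testes without it against normal ones. Levels are RPKM, read counts scaled by the length of the gene and the size of the library, as the authors deposited them for each library. The table gives no read totals, so the depth behind a value is unknown.

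A name that ends in Rik is that of a cDNA clone from the RIKEN mouse full-length cDNA collection, given to a gene before its product was understood. Its first digits record the source library of the clone, and several of those libraries were made from adult testis. The testis transcribes an unusually broad range of genes, above all in spermatids, the haploid cells that condense their chromatin with protamines and build the acrosome, a secretory cap used at fertilisation, and the flagellum, a microtubule axoneme wrapped in mitochondria and fibres. A number of genes first known by such clones have since been renamed for parts of the sperm.

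By clone name, 236 of the 265 Rik genes carry the prefix of a RIKEN library from adult testis, 123 of them the prefix 1700, and 29 carry other prefixes. RefSeq matched 264 of them, all but C230096C10Rik, and gives 99 a new symbol. It lists 184 as protein-coding, 74 as long noncoding RNA (lncRNA) and 6 as pseudogenes. Noncoding genes of both kinds made up 80 of the 264 (30.3%), against 19 of the 711 other matched genes (2.67%), so 80 of the 99 noncoding genes of the table are Rik genes. Coding status was the same in GENCODE M21 for 253 of the 259 members found in both annotations. The Rik genes lie on 20 chromosomes, with 28 on chromosome 2, 26 on chromosome 5, 22 on chromosome 4, 8 on X and none on Y. Their longest GENCODE transcripts were short, with a median of 1202 nt in 4 exons, against 2382 nt in 8 exons for the other genes. Among coding genes alone the medians were 1423 nt in 5 exons for Rik genes and 2454.5 nt in 8 exons for the others. Their coding sequences had medians of 789 nt and 1362 nt.

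The targeted gene, Ptbp2, had 111 and 98.2 RPKM in the labelled cKO libraries, against 65.7 and 66.6 RPKM in the WT libraries. Its RPKM covers deleted and kept exons alike and cannot verify the genotype, so the libraries are called labelled cKO throughout. Values below are given for library 1 and then library 2 of each genotype. The 12 spermatid marker genes, among them Prm1, Tnp1 and Akap4, summed to 161 RPKM in labelled cKO library 1 and 34.1 RPKM in labelled cKO library 2, against 1428 and 2017 RPKM in WT libraries 1 and 2, and all 12 fell. Other marker lists were mostly outside the table, which held 2 of 8 spermatocyte, 1 of 6 Sertoli, 1 of 5 Leydig, 3 of 5 macrophage, 1 of 4 myoid and 0 of 6 spermatogonia genes. The spermatocyte genes among them, Pgk2 and Ccna1, summed to 153 and 83.0 RPKM in the labelled cKO libraries, against 262 and 268 RPKM in the WT libraries, with labelled cKO library 2 again the lowest. Pgk2 fell and Ccna1 was not called in limma. In whole testis, fewer cells of a type and less RNA per cell cannot be told apart, and the part of cell composition in the results below was not tested.

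In labelled cKO testes nearly all Rik genes of the table were lower. The median over Rik genes was 5.68 RPKM in labelled cKO library 1 and 1.66 RPKM in labelled cKO library 2, against 21.3 and 24.2 RPKM in WT libraries 1 and 2. On the scale of the log2 ratio of genotype means, the median was -2.33, a 5.02-fold lower level, with quartiles of -2.96 and -1.53 and a range from -4.88 to 0.94. The other 723 genes had a median of -1.63 and the whole table one of -1.87. The ratio was below 0 for 264 Rik genes and above 0 for 1. It reached 2-fold lower in 244, 4-fold in 162, 8-fold in 63 and 16-fold in 7. For the 4-fold step that is 61.1% of the Rik genes, against 40.8% of the other genes and 46.3% of the table. The other genes include 62 with a ratio above 0. Among genes with a ratio below 0, 61.4% of Rik and 44.6% of other genes reached this step. Their medians were -2.34 and -1.79.

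In limma, run on log2(RPKM + 1) for all 988 genes with adjustment by Benjamini and Hochberg (BH) at 0.05, 249 Rik genes fell, 1 rose and 15 were not called. The share that fell was 94.0%, against 80.2% of the other genes and 83.9% of the table, and 1.92% of the table rose. Among genes with a ratio below 0, the share that fell was 94.3% of Rik and 87.7% of other genes. The labelled cKO values all lay below the WT values for 264 Rik genes, as they did for 93.6% of the table. In 1 direction or the other, the genotypes did not overlap in any of the 988 genes. Separation of the genotypes therefore sets no gene apart from the rest of the table. The authors deposited only genes they had selected for a difference, so these counts measure differences against the spread between mice and are not independent evidence of them. An exact permutation test of a single gene, two-sided, cannot go below p = 0.333 with 2 mice per genotype. Without WT library 1 or WT library 2, limma called 134 and 123 Rik genes lower, and without either labelled cKO library 264.

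**Figure D1:**
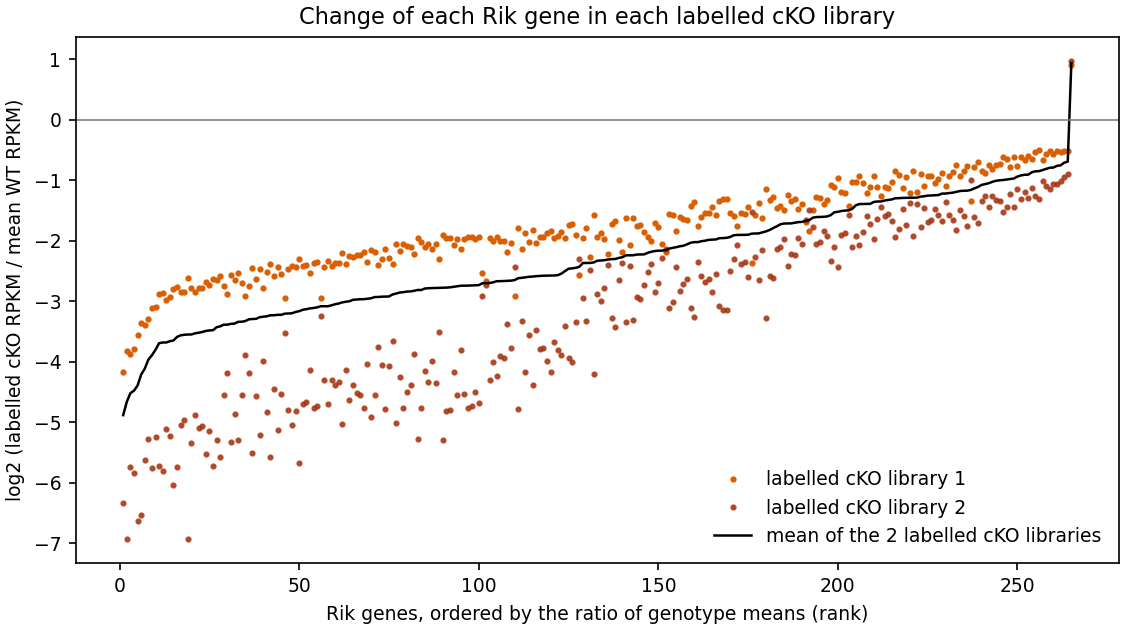
Each of the 265 Rik genes is placed by rank of its log2 ratio of genotype means (black line), with the log2 ratio to the WT mean drawn for labelled cKO library 1 (orange) and labelled cKO library 2 (dark red). All but 1 gene lie below 0, and the points of labelled cKO library 2 lie below those of library 1 for 257 genes.

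Rik genes accounted for 16.7% and 12.3% of the RPKM summed over the table in labelled cKO libraries 1 and 2, against 21.3% and 21.4% in WT libraries 1 and 2. The sums were 3774 and 2066 RPKM in the labelled cKO libraries, against 9232 and 9906 RPKM in the WT libraries. Summed Rik RPKM was thus lowest in labelled cKO library 2, and so was the share. The table sum includes 63 genes with a ratio above 0, so the share depends in part on them. The 925 genes below 0 held 78.3% and 64.8% of it in the labelled cKO libraries, against 92.4% and 92.8% in the WT libraries. Within those genes the Rik sums were 3759 of 17746 and 2050 of 10854 RPKM in the labelled cKO libraries. In the WT libraries they were 9224 of 39983 and 9898 of 42855 RPKM.

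The lowest ratios belonged to a mixed group of named and unnamed genes. The noncoding gene 1700031M16Rik on chromosome 15, an lncRNA in RefSeq, had 2.23 and 0.5 RPKM in the labelled cKO libraries, against 35.7 and 44.7 RPKM in the WT libraries. That is 29.4-fold lower by the ratio of means, and on the log2(RPKM + 1) scale limma gave a difference of -4.22 ± 0.46 (SE) with a BH-adjusted p of 0.0177. Cabs1 (4931407G18Rik), which encodes a calcium-binding protein of the sperm tail, had 2.06 and 0.24 RPKM in the labelled cKO libraries, against 24.4 and 33.7 RPKM in the WT libraries, a log2 ratio of -4.66. In both genes labelled cKO library 2 was the lowest of the 4 libraries.

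1700015G11Rik, for which RefSeq lists the synonym Ccdc179, had 2.82 and 0.77 RPKM in the labelled cKO libraries, against 34.6 and 47.5 RPKM in the WT libraries (log2 ratio -4.51). Smim23 (1700008A04Rik), named as a small integral membrane protein, had 1.66 and 0.4 RPKM in the labelled cKO libraries, against 19.5 and 26.3 RPKM in the WT libraries (log2 ratio -4.47). 1700034E13Rik on chromosome 18 had 4.63 and 0.55 RPKM in the labelled cKO libraries, against 46.9 and 61.7 RPKM in the WT libraries (log2 ratio -4.39). These are short coding genes, with coding sequences of 213, 408 and 324 nt. 1700016H13Rik was at 2.86 and 0.32 RPKM in the labelled cKO libraries, against 25.1 and 33.8 RPKM in the WT libraries (log2 ratio -4.21). Cfap97d1 (1700006E09Rik), which encodes a protein of the flagellar axoneme, was at 4.98 and 1.06 RPKM in the labelled cKO libraries, against 47.1 and 57.3 RPKM in the WT libraries (log2 ratio -4.11). The 7 genes named so far are those at least 16-fold lower.

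4933411K16Rik, a coding gene with 1 exon in its longest transcript, followed with 5.42 and 1.36 RPKM in the labelled cKO libraries, against 47.1 and 58.5 RPKM in the WT libraries (log2 ratio -3.96). Tex35 (1700057K13Rik), a testis-expressed gene, had 5.81 and 0.92 RPKM in the labelled cKO libraries, against 44.8 and 54.9 RPKM in the WT libraries (log2 ratio -3.89), and 4930503B20Rik, with the RefSeq synonym Samd13, had 4.31 and 0.97 RPKM in the labelled cKO libraries, against 33.5 and 39.9 RPKM in the WT libraries (log2 ratio -3.80). In each of these 10 genes WT library 2 was the highest library and labelled cKO library 2 the lowest. All 10 fell in limma with a BH-adjusted p of 0.0177, beside 83.9% of the table that fell. They were picked for low ratios in the same libraries, so these calls add no separate support.

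**Figure D2:**
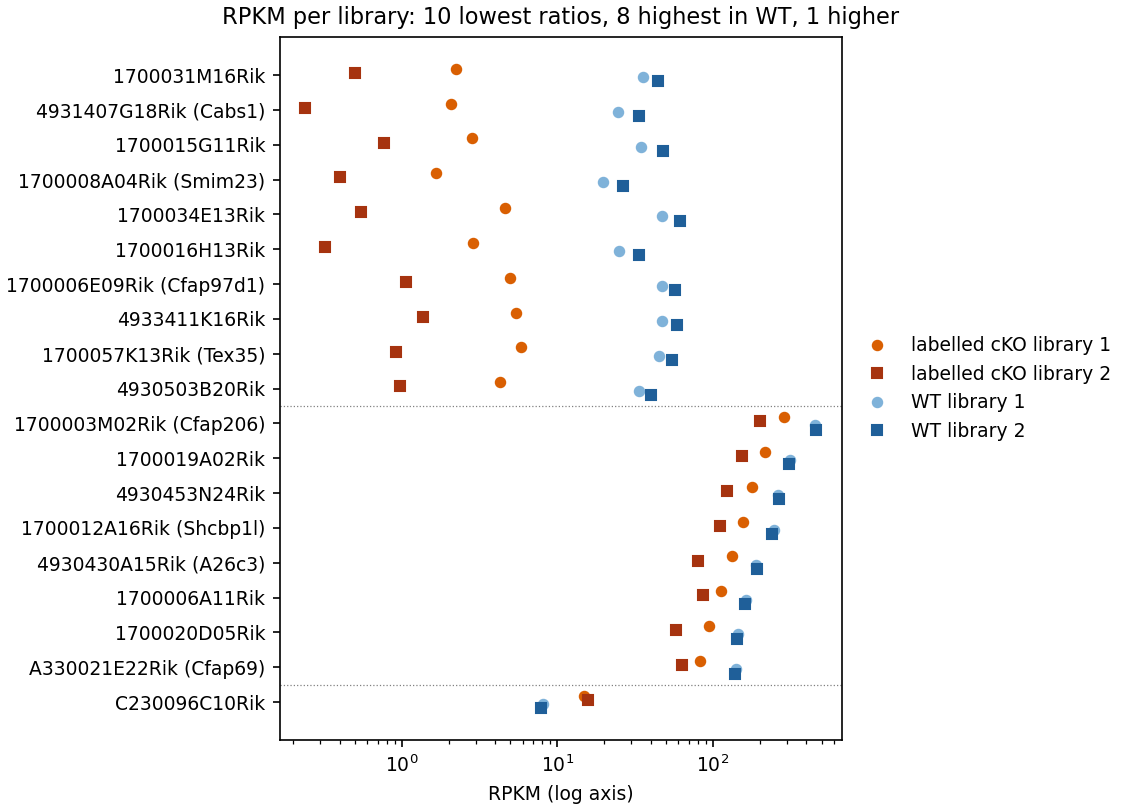
RPKM of 19 Rik genes on a log axis, 1 row a gene, with labelled cKO library 1 as orange circles, labelled cKO library 2 as dark red squares and the WT libraries in light and dark blue. Labelled cKO values of the 10 genes with the lowest ratios spread from 0.24 to 5.81 RPKM, while all values of the 8 genes highest in WT lie between 58.3 and 462 RPKM.

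The most abundant Rik genes had small ratios. Cfap206 (1700003M02Rik), which encodes an axonemal protein needed for radial spokes, was the highest, with 289 and 200.3 RPKM in the labelled cKO libraries, against 455 and 462 RPKM in the WT libraries. Its log2 ratio was -0.91, and it fell in limma by 0.93 ± 0.32 (SE) on the log2 scale with a BH-adjusted p of 0.0444. Shcbp1l (1700012A16Rik), a protein of the meiotic spindle, had 156 and 112 RPKM in the labelled cKO libraries, against 247 and 239.9 RPKM in the WT libraries (BH-adjusted p = 0.0469 in limma), and Cfap69 (A330021E22Rik), needed for assembly of the flagellum, had 82.8 and 63.4 RPKM in the labelled cKO libraries, against 140.1 and 139 RPKM in the WT libraries (BH-adjusted p = 0.0361 in limma). These genes fell by less than 2-fold. All 3 calls were lost in limma without WT library 1 or WT library 2 (BH-adjusted p from 0.364 to 0.389), under a replicate block that pairs same-numbered libraries (0.127 to 0.148) and with a pseudocount of 0.1 (0.0527 to 0.0679). Among genes with a mean RPKM of at least 5, Cfap206 and Shcbp1l also lost theirs. Over all alternatives their p ran from 0.000360 to 0.389.

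Of the 8 Rik genes highest in WT, the other 5 did not pass in limma. 1700019A02Rik had 216 and 154 RPKM in the labelled cKO libraries, against 313 and 310.5 RPKM in the WT libraries, and 4930453N24Rik had 179 and 124 RPKM in the labelled cKO libraries, against 263 and 267 RPKM in the WT libraries. A26c3 (4930430A15Rik) had 133 and 80.1 RPKM in the labelled cKO libraries, against 191 and 192 RPKM in the WT libraries. 1700006A11Rik had 114 and 87.1 RPKM in the labelled cKO libraries, against 163 and 160.3 RPKM in the WT libraries, and 1700020D05Rik, with the RefSeq synonym mage-g2, had 94.4 and 58.3 RPKM in the labelled cKO libraries, against 144 and 144 RPKM in the WT libraries. Their BH-adjusted p in limma ran from 0.0527 to 0.0704 and their log2 ratios from -0.92 to -0.69. In each of them the labelled cKO values lay below both WT values, as in 93.6% of the table, with labelled cKO library 2 again the lowest.

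Split by WT mean, the 22 Rik genes under 5 RPKM had a median log2 ratio of -1.71, the 98 from 5 to 20 RPKM one of -2.34, the 89 from 20 to 50 RPKM one of -2.66 and the 42 from 50 to 100 RPKM one of -2.67. The 14 genes at 100 RPKM or more had a median of -0.91, and 8 of them were not called in limma, but 3 were at least 4-fold lower. The ratio and the WT mean had a Spearman rho of -0.04 across the 265 genes, which share the same 4 libraries. The lowest ratios thus lay in the middle of the range of levels, and the highest and lowest bands had medians nearer to 0. At the low end 9230105E05Rik, an lncRNA, had 1.35 and 0.97 RPKM in the labelled cKO libraries, against 2.99 and 2.85 RPKM in the WT libraries, and 4933438K21Rik, also an lncRNA, had 1.46 and 1.09 RPKM in the labelled cKO libraries, against 2.88 and 3.16 RPKM in the WT libraries. Cfap77 (1700101E01Rik), which encodes a microtubule inner protein of the axoneme, was nearly as low, with 1.62 and 1.1 RPKM in the labelled cKO libraries, against 3.03 and 3.11 RPKM in the WT libraries. All 3 fell in limma, by ratios of 2.26 to 2.52-fold. These calls were lost under the replicate block, with limma's BH-adjusted p from 0.154 to 0.182, and without WT library 1 or WT library 2, with p from 0.385 to 0.421. Over all alternatives p ran from 0.000640 to 0.421.

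**Figure D3:**
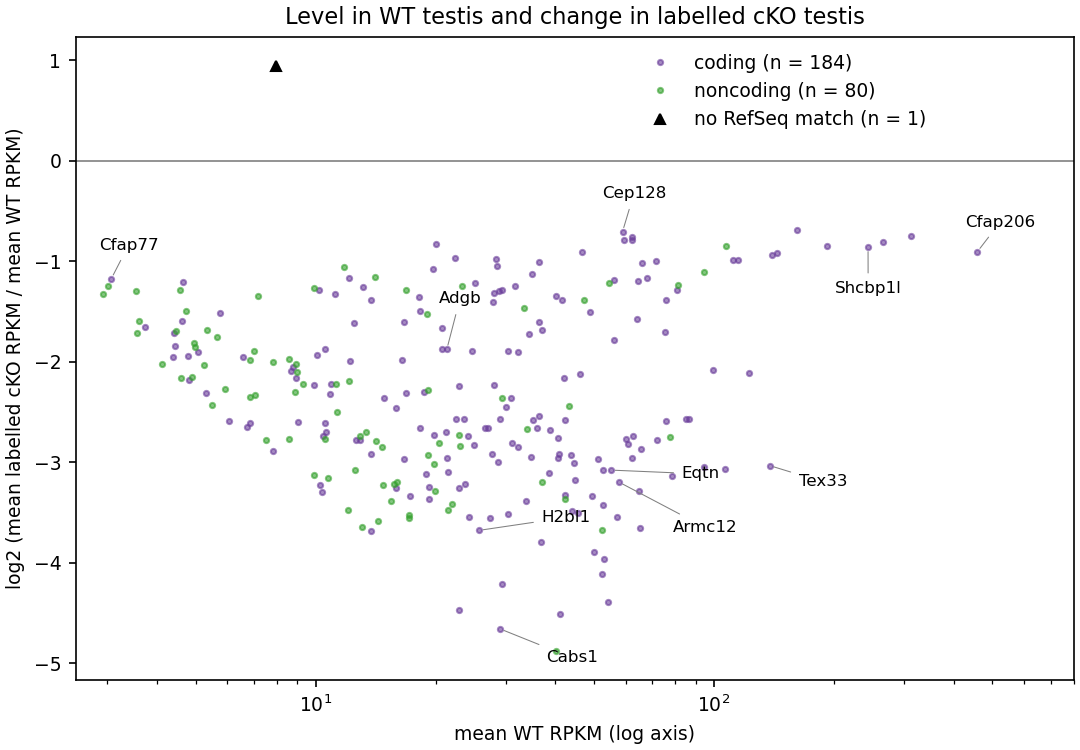
Log2 ratio of genotype means against the WT mean RPKM (log axis) for 184 coding (purple) and 80 noncoding (green) Rik genes and for C230096C10Rik (black triangle), which had no RefSeq match. Genes above 100 RPKM in WT lie mostly near -0.91, with 3 of the 14 at least 4-fold lower. The 7 lowest ratios lie at WT means from 22.9 to 54.3 RPKM, and the triangle is the one gene above 0.

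Smallest of all in absolute size were the log2 ratios of 1700006A11Rik (-0.69), Cep128 (-0.71), 1700019A02Rik (-0.75), Mroh8 (-0.76) and 4932414N04Rik (-0.79). Mroh8 (4922505G16Rik) had 43.7 and 29.95 RPKM in the labelled cKO libraries, against 63.1 and 61.4 RPKM in the WT libraries, and 4932414N04Rik had 42.5 and 29.9 RPKM in the labelled cKO libraries, against 62.5 and 62.4 RPKM in the WT libraries. None of the 5 passed in limma, which follows largely from picking them for small ratios in the same libraries. In all, 20 Rik genes were lower by under 2-fold.

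Only C230096C10Rik was higher. It had 14.9 and 15.7 RPKM in the labelled cKO libraries, against 8.07 and 7.86 RPKM in the WT libraries, a log2 ratio of 0.94, and labelled cKO library 2 was the highest library. In limma it rose by 0.86 ± 0.26 (SE) on the log2(RPKM + 1) scale with a BH-adjusted p of 0.0349. Over the alternative settings that p ranged from 0.000807 to 0.398, and the call was lost without WT library 1, without WT library 2, under the replicate block, with a trend in the variance and among genes with a mean RPKM of at least 5. Beside it, the 3 macrophage markers in the table (Lyz2, Cd74 and H2-Aa) summed to 54.7 and 69.0 RPKM in the labelled cKO libraries, against 29.0 and 29.9 RPKM in the WT libraries. The Leydig marker Hsd3b1 was at 76.5 and 74.0 RPKM in the labelled cKO libraries, against 41.2 and 46.4 RPKM in the WT libraries. The Sertoli marker Inha, which did not pass in limma, was at 99.6 and 138 RPKM in the labelled cKO libraries, against 70.2 and 71.7 RPKM in the WT libraries. The myoid marker Actg2 fell, with 6.77 and 6.56 RPKM in the labelled cKO libraries, against 32.7 and 35.4 RPKM in the WT libraries. The part of these markers in the result was not tested.

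Coding and noncoding Rik genes had similar ratios at different levels. Coding members had a median WT mean of 29.2 RPKM and noncoding members one of 12.4 RPKM, on a scale per gene length. Their median log2 ratios were -2.41 and -2.29, against -1.62 for the other coding genes of the table and -2.01 for its 19 other noncoding genes. In limma 170 of 184 coding and 79 of 80 noncoding members fell, beside 83.9% of the table. Without WT library 1 these counts were 99 and 35, and without WT library 2 they were 89 and 34. At least a 4-fold lower level was reached by 59.8% of coding and 65% of noncoding members, beside 46.3% of the table.

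The noncoding genes with the lowest ratios after 1700031M16Rik were a pseudogene and a group of lncRNAs. 1700019M22Rik, a pseudogene with a single exon, had 6.67 and 1.52 RPKM in the labelled cKO libraries, against 47.98 and 56.8 RPKM in the WT libraries. Tmem132cos (1700085B03Rik), named as the opposite-strand transcript of Tmem132c, had 1.89 and 0.2 RPKM in the labelled cKO libraries, against 12.02 and 14.1 RPKM in the WT libraries. 4930471G03Rik had 2.12 and 0.27 RPKM in the labelled cKO libraries, against 13.8 and 14.9 RPKM in the WT libraries. In labelled cKO library 2 both lncRNAs were at or near 0.2, the lowest RPKM of the table. 4933404G15Rik had 2.37 and 0.55 RPKM in the labelled cKO libraries, against 16.95 and 17.3 RPKM in the WT libraries, and these 4 log2 ratios ran from -3.68 to -3.55. A pseudogene can share reads with its parent gene, and how the authors assigned such reads is not given in the sources used here.

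**Figure D4:**
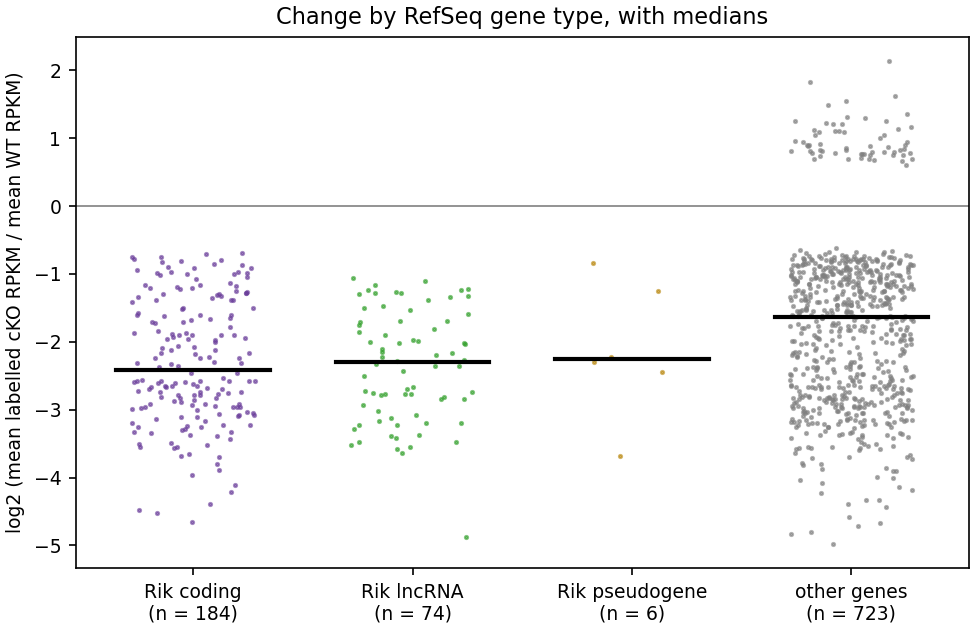
Log2 ratio of genotype means of each gene as a point, with the median as a bar, for coding, lncRNA and pseudogene Rik genes and for the other 723 genes of the table. Medians are -2.41, -2.30, -2.26 and -1.63, and every value drawn above 0 is of the other genes.

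By source of the clone, the 236 members from adult testis libraries had a median log2 ratio of -2.48 and a median WT mean of 23.2 RPKM, against -1.71 and 13.8 RPKM for the 29 from other libraries. A 4-fold lower level was reached by 64.4% of the first and 34.5% of the second, beside 46.3% of the table. The 91 renamed coding members had a median of -2.46 and the 93 coding members that kept the clone name one of -2.36. Renamed ones had longer coding sequences, with a median of 1017 nt against 693 nt. Of the other 723 genes of the table, 411 (56.8%) have an older Rik symbol in RefSeq, and their median of -1.69 lay nearer to the -1.53 of the 312 without one. These splits are descriptions and were not tested.

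A list of 24 Rik genes with a known role in sperm, in spermatogenesis or in the cell was made from the present-day symbols alone. It is not complete, and Ccsap, described further on with the genes uneven between the labelled cKO libraries, is not in it. Of these, 22 fell in limma and 2 were not called, beside 83.9% of the table that fell, and their median log2 ratio was -2.22. Counts of the groups below are to be read against that share of the table. Without WT library 1 the count was 13, without WT library 2 it was 11, and without either labelled cKO library it was 24.

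Genes of the acrosome and of fertilisation fell in 4 of 4 cases (83.9% of the table fell), with a median log2 ratio of -3.02. Without WT library 2 the call of Pmis2 was lost, which left 3 of 4. Llcfc1 (1700034O15Rik), the SOF1 protein needed for fusion of sperm and egg, had 14.8 and 3.05 RPKM in the labelled cKO libraries, against 74.7 and 82.6 RPKM in the WT libraries. Eqtn (4930579C15Rik), equatorin of the acrosomal membrane, had 10.3 and 2.79 RPKM in the labelled cKO libraries, against 55.4 and 54.9 RPKM in the WT libraries. Fam209 (1700029J11Rik), a partner of DPY19L2 in anchoring the acrosome to the nucleus, had 13.7 and 2.28 RPKM in the labelled cKO libraries, against 58.5 and 65.8 RPKM in the WT libraries. These genes were 7.79 to 8.80-fold lower by the ratio of means, and labelled cKO library 2 held the lowest value of each. Pmis2 (4930479M11Rik), needed for maturation of the sperm surface protein ADAM3, had 4.82 and 3.07 RPKM in the labelled cKO libraries, against 17.7 and 20.6 RPKM in the WT libraries. RefSeq lists Pmis2 as an lncRNA, while GENCODE gives it a coding sequence of 288 nt.

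Genes of the axoneme and flagellum fell in 13 of 13 cases, beside 83.9% of the table, over a wide range of ratios from -4.66 for Cabs1 to -0.91 for Cfap206, with a median of -1.88. Without WT library 1 limma called 5 of the 13, and without WT library 2 it called 4. Armc12 (4930511I11Rik), needed to form the mitochondrial sheath of the midpiece, had 10.5 and 2.07 RPKM in the labelled cKO libraries, against 55.2 and 60.3 RPKM in the WT libraries. Tex33 (1700061J05Rik), a microtubule inner protein, had 26.9 and 6.83 RPKM in the labelled cKO libraries, against 129 and 147 RPKM in the WT libraries, the highest WT level among the role genes that were at least 4-fold lower. Both fell by over 8-fold.

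Ratios of other microtubule inner proteins were smaller. Spaca9 (1700026L06Rik) had 12.3 and 6.51 RPKM in the labelled cKO libraries, against 37.5 and 46.7 RPKM in the WT libraries (log2 ratio -2.16). Ccdc173 (4930578N16Rik), also known as CFAP210, had 37.5 and 27.6 RPKM in the labelled cKO libraries, against 67.2 and 64.96 RPKM in the WT libraries (log2 ratio -1.02), and Cfap77 was at -1.17. Maats1 (4932425I24Rik), also known as CFAP91 and part of the radial spokes, had 15.1 and 8.82 RPKM in the labelled cKO libraries, against 35.6 and 37.2 RPKM in the WT libraries (log2 ratio -1.61). Among these 4 genes Spaca9 had the lowest ratio and Ccdc173 the smallest change. Cnbd2 (4921517L17Rik), a cyclic-nucleotide-binding protein needed for normal flagella, had 10.4 and 5.82 RPKM in the labelled cKO libraries, against 29 and 31.6 RPKM in the WT libraries. Adgb (9130014G24Rik), androglobin, a large protein needed for spermatogenesis, had 7.18 and 4.45 RPKM in the labelled cKO libraries, against 21.4 and 21.3 RPKM in the WT libraries. Cfap157 (1700019L03Rik), a basal body protein needed for male fertility, had 20.5 and 11.5 RPKM in the labelled cKO libraries, against 33.9 and 36.1 RPKM in the WT libraries. Labelled cKO library 2 was again below library 1 in each.

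Among genes of the nucleus and chromatin, 3 of 4 fell, a share no higher than the 83.9% of the table. H2bl1 (1700024P04Rik), a spermatid variant of histone H2B, had 3.56 and 0.46 RPKM in the labelled cKO libraries, against 21.8 and 29.7 RPKM in the WT libraries (log2 ratio -3.68). Ccer1 (4921510H08Rik), which acts in the exchange of histones for protamines, had 8.54 and 2.53 RPKM in the labelled cKO libraries, against 41.5 and 47.3 RPKM in the WT libraries, an 8.03-fold lower level by the ratio of means, and Spata46 (1700015E13Rik), a nuclear envelope protein that shapes the sperm head, had 17.4 and 3.59 RPKM in the labelled cKO libraries, against 69.9 and 74.4 RPKM in the WT libraries (log2 ratio -2.78). All 3 are spermatid proteins, and each was over 6-fold lower. Lrif1 (4933421E11Rik), which binds HP1 in heterochromatin of many cell types, had 12.7 and 9.97 RPKM in the labelled cKO libraries, against 19.7 and 20.4 RPKM in the WT libraries, and was not called in limma, where its BH-adjusted p was 0.0506.

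In the group of head-tail junction, centriole and spindle, 2 of 3 fell, also no higher than the 83.9% of the table. Spatc1l (1700027D21Rik), needed to join the sperm head to the tail, had 10.01 and 2.47 RPKM in the labelled cKO libraries, against 34.1 and 38.5 RPKM in the WT libraries (log2 ratio -2.54). Shcbp1l, described above, had a log2 ratio of -0.86. Cep128 (4930534B04Rik), a protein of centriole appendages in many cells, had 41.4 and 30.8 RPKM in the labelled cKO libraries, against 60.1 and 57.8 RPKM in the WT libraries and was not called in limma (BH-adjusted p = 0.0710). Without WT library 1 or WT library 2 only 1 of the 3 was called in each fit.

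The libraries labelled cKO differed more from each other than the WT libraries did. Library 2 was below library 1 for 257 of 265 Rik genes (97.0%), against 87.4% of the other genes. The median log2 ratio of library 2 over library 1 was -1.32, against -0.72. Among genes lower in labelled cKO, the same order held for 97.3% of Rik and 93.8% of other genes, with medians of -1.33 and -0.80. Between WT library 2 and WT library 1 the Rik median was 0.11, with WT library 2 higher for 213 Rik genes. Set against the WT mean, the median Rik gene was at -1.90 in labelled cKO library 1 and at -3.15 in labelled cKO library 2 on the log2 scale. The RPKM of 158 Rik genes in library 2 was at least 2-fold below that in library 1, and that of 85 at least 4-fold. Under 1 RPKM stood 72 Rik genes in labelled cKO library 2 and 2 in labelled cKO library 1, against 0 in either WT library. With 1 mouse each, no test separates these libraries, and the summed spermatid markers moved the same way, with 161 RPKM in labelled cKO library 1 and 34.1 RPKM in labelled cKO library 2. Their part in the difference was not tested.

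Efcab15 (1700023F06Rik), named for an EF-hand calcium-binding domain, was the most uneven, with 3.96 and 0.2 RPKM in the labelled cKO libraries, against 22.1 and 26.5 RPKM in the WT libraries. Its log2 ratio of library 2 over library 1 was -4.31. 4930529L06Rik, an lncRNA, had 2.82 and 0.27 RPKM in the labelled cKO libraries, against 11.3 and 9.87 RPKM in the WT libraries, and 4930519H02Rik, an lncRNA, had 2.19 and 0.21 RPKM in the labelled cKO libraries, against 9.78 and 11.7 RPKM in the WT libraries. 1700001P01Rik, a coding gene, had 8.05 and 0.8 RPKM in the labelled cKO libraries, against 28.3 and 33.8 RPKM in the WT libraries. In these genes labelled cKO library 1 was above library 2, and with Tmem132cos their log2 ratios between the libraries ran from -4.31 to -3.24. The library 2 values of Efcab15 and Tmem132cos were at 0.2, the lowest RPKM of the table. Those of 4930519H02Rik and 4930529L06Rik lay near it. Read counts behind these values are unknown, so the size of the ratios drawn from them is uncertain.

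In 8 Rik genes library 2 was the higher of the labelled cKO libraries, and the 5 with the largest such ratio were all lower than WT. 2200002J24Rik had 2.06 and 3.69 RPKM in the labelled cKO libraries, against 9.61 and 11.5 RPKM in the WT libraries, a log2 ratio of 0.84 between the labelled cKO libraries. 4931428F04Rik, with the RefSeq synonym Kiaa0895l, had 0.9 and 1.25 RPKM in the labelled cKO libraries, against 5.95 and 7.51 RPKM in the WT libraries. The lncRNA 1700007F19Rik had 5.55 and 7.06 RPKM in the labelled cKO libraries, against 14.2 and 13.9 RPKM in the WT libraries. These genes departed from the order seen in most Rik genes. Ccsap (1700054N08Rik), a protein of centrioles, cilia and spindles, had 1.04 and 1.32 RPKM in the labelled cKO libraries, against 2.99 and 4.45 RPKM in the WT libraries, and the lncRNA 4930479D17Rik had 0.93 and 1.11 RPKM in the labelled cKO libraries, against 5.5 and 5.47 RPKM in the WT libraries. The 5 fell in limma, but none of them without WT library 1 or without WT library 2.

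**Figure D5:**
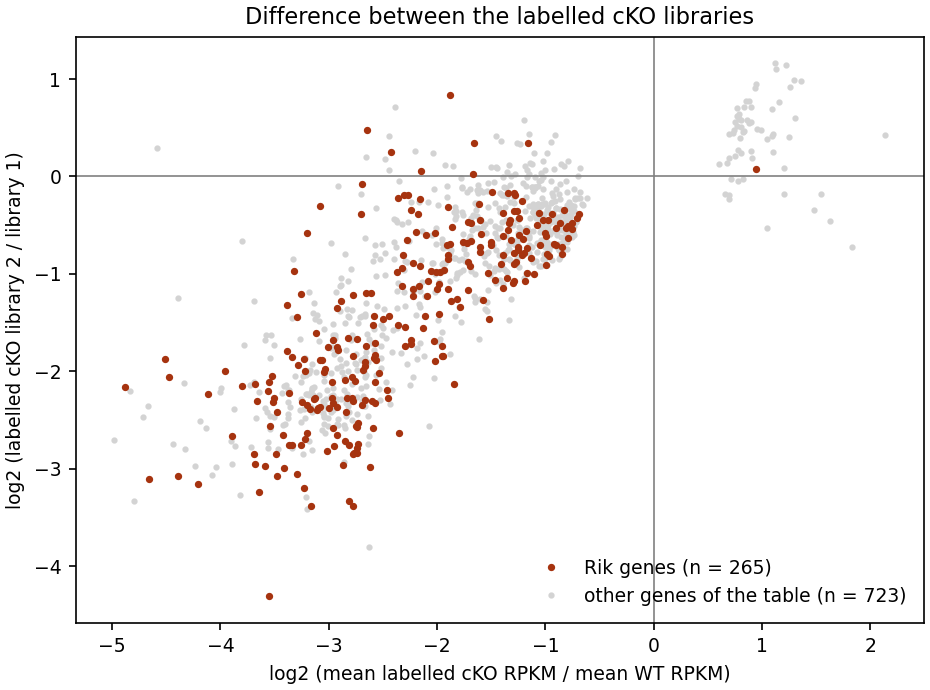
Log2 ratio of labelled cKO library 2 over labelled cKO library 1 against the log2 ratio of genotype means, for 265 Rik genes (dark red) and the other 723 genes of the table (grey). Most Rik points lie below 0 on the vertical axis, down to -4.31 for Efcab15, and genes with lower ratios of genotype means tend to lie further down. Both axes use the same labelled cKO values, so they are not independent, and the trend was not tested.

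Of the 915 genes in the authors' splicing table, 63 have a Rik symbol. An event is listed there for 73 of the 723 other genes of the expression table. For the Rik genes of the expression table it is 15 of 265, a smaller share, with 19 events in all. The events carry the authors' ΔPSI, a change in percent spliced in, in percentage points. The headers do not say which genotype was subtracted and no value per library is given, so neither a direction of inclusion nor an error can be stated. Coordinates follow mm9, counted from 1. Of these events 2 passed 20 points. A 139-nt cassette exon of 1700057G04Rik on chromosome 9 (92248305 to 92248443, plus strand) had a ΔPSI of -39. This coding gene had 2.95 and 0.82 RPKM in the labelled cKO libraries, against 13.1 and 12.8 RPKM in the WT libraries. A 44-nt cassette exon of Tex35 on chromosome 1 (159029835 to 159029878, minus strand) had a ΔPSI of 32, in a gene at 5.81 and 0.92 RPKM in the labelled cKO libraries, against 44.8 and 54.9 RPKM in the WT libraries. Both exons have the length of an annotated exon of their gene.

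Among smaller events, a 235-nt cassette exon of 1110017D15Rik, a spermatid protein gene with the RefSeq synonym Smrp1, had a ΔPSI of 17.5. The gene had 20.2 and 11.5 RPKM in the labelled cKO libraries, against 39.03 and 44.1 RPKM in the WT libraries. A 179-nt cassette exon of 1700006A11Rik had a ΔPSI of 18, and a retained intron of Ccdc180 one of -17. Ccdc180 (E230008N13Rik), a coiled-coil protein gene, had 16.6 and 12.2 RPKM in the labelled cKO libraries, against 28.2 and 28.3 RPKM in the WT libraries. 2810408A11Rik had 4 events with ΔPSI from -18 to -1, and its level was 6.64 and 5.22 RPKM in the labelled cKO libraries, against 26.1 and 29.9 RPKM in the WT libraries. Of these 4 genes 3 fell in limma, and 1700006A11Rik was not called. None of the 3 was called without WT library 2, and without WT library 1 only 2810408A11Rik was. A cassette exon of 1480 nt in Lrif1 had a ΔPSI of 14, and a retained intron of Spaca9 one of -10. Cassette exons of Cnbd2 (11), Ccdc178 on chromosome 18 (10) and the lncRNA 1700086L19Rik (3) were positive, and Sh3d21, with an SH3 domain, had a cassette exon at 11 and a retained intron at -6. Alternative 3' splice sites of 1700003F12Rik (-2) and Lmntd2 (-1) and a cassette exon of Pttg1ip2 (-1) were near 0.

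The remaining genes with events differed in level. 1700003F12Rik had 10.5 and 2.75 RPKM in the labelled cKO libraries, against 58.9 and 70.7 RPKM in the WT libraries, Sh3d21 (1700029G01Rik) had 13.1 and 4.15 RPKM in the labelled cKO libraries, against 57.6 and 64.4 RPKM in the WT libraries, and Pttg1ip2 (1700015F17Rik) had 18.6 and 6.46 RPKM in the labelled cKO libraries, against 71.1 and 80.2 RPKM in the WT libraries. These fell by over 6-fold. Lmntd2 (1600016N20Rik), named for a lamin tail domain, had 18.7 and 12.8 RPKM in the labelled cKO libraries, against 39.6 and 40.7 RPKM in the WT libraries. Ccdc178 (4921528I01Rik) had 40.2 and 20.2 RPKM in the labelled cKO libraries, against 68.6 and 67.3 RPKM in the WT libraries, and 1700086L19Rik had 58.5 and 29.1 RPKM in the labelled cKO libraries, against 94.1 and 94.9 RPKM in the WT libraries. These fell by 2.16 to 2.54-fold, and their limma calls were lost without WT library 1 or WT library 2. The 15 genes with an event had a median log2 ratio of -1.90 and the 250 without one a median of -2.36, a difference that was not tested.

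Of the Rik genes, 55 overlap an exon of a gene on the opposite strand in GENCODE M21. Whether the authors counted reads by strand is not stated in any source used. For 5 of them the partner is also in the table. 4930542D17Rik had 3.64 and 0.44 RPKM in the labelled cKO libraries, against 18.7 and 21.3 RPKM in the WT libraries, and Ccdc54 opposite it had a log2 ratio of -3.47 beside its own -3.29. Asb17os (2510003D18Rik), named as the opposite-strand transcript of Asb17, had 2.12 and 0.85 RPKM in the labelled cKO libraries, against 12.9 and 18.1 RPKM in the WT libraries, with log2 ratios of -3.38 for Asb17os and -3.88 for Asb17. In these pairs both genes were low in both labelled cKO libraries. For 4931419H13Rik opposite Ccna1, a cyclin of spermatocytes, the ratios were -1.06 and -0.86. For 1700003F12Rik opposite Necab3 they were -3.29 and -1.82, and for 4933417D19Rik opposite Spata2l they were -2.10 and -1.54. Where reads were not assigned by strand, the values of these pairs cannot be told apart. The 204 matched members without such an overlap had a median of -2.53 and the 55 with one a median of -2.22.

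Promoters of the Rik genes were searched for motifs of CREM and RFX2, factors known for spermatid transcription. RefSeq windows of build GRCm38.p6, from 250 bases before to 50 after a transcript start, were held for 218 of them, 258 windows in all. The letters TGACGTCA, the full cAMP-response element (CRE), stood on either strand in 1.94% of these windows, against 4.07% for the other genes of the table and 1.79% of all 32851 promoter windows. The shorter site TGACG, which lies within the full one, stood in 21.3%, against 23.3% and 20.8%. GTTGCC, one arm of the X-box bound by RFX factors, stood in 22.5%, against 19.3% and 12.5%. Mean GC content of the windows was 51.0%, against 55.2% and 53.8%. A match describes these letters only, and the differences were not tested.

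Of the 5 Rik genes with a full CRE, the 4 whose match lies before the start are shown, in lower case with the CRE in capitals, 80 bases each from the gene's strand of GRCm38.p6. They are the lncRNA genes C030037D09Rik (chr11:88718403-88718482, plus strand), 4933417D19Rik (chr8:123235011-123235090, plus strand) and 4930525G20Rik (chr13:67830996-67831075, minus strand) and the coding gene Ccdc173 (chr2:69789539-69789618, minus strand).
C030037D09Rik: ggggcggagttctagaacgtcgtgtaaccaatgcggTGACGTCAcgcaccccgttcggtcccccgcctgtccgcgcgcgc
4933417D19Rik: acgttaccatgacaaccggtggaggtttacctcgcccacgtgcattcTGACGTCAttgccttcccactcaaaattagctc
4930525G20Rik: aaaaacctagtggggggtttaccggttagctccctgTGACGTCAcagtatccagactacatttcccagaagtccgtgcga
Ccdc173: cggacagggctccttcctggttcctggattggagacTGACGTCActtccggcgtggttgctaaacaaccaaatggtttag
The match begins 204, 33, 54 and 96 bases before the start in this order. Fam220a, not shown, has its match across the start. Their log2 ratios were -3.08 for C030037D09Rik, -2.10 for 4933417D19Rik, -1.76 for 4930525G20Rik, -1.39 for Fam220a and -1.02 for Ccdc173. The median was -1.76, against -2.30 for the 213 members with a window and no match.

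Of the 10 Rik genes with the lowest ratios, 6 have a window, and 1 of these, Tex35, holds GTTGCC before its start, read on the other strand as GGCAAC. It is shown with that match in capitals (chr1:157108728-157108807, minus strand, GRCm38.p6), as the one such member.
Tex35: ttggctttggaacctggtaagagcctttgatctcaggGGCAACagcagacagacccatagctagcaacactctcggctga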

How the data were processed

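The 4 libraries come from testes of separate mice at postnatal day 25, with poly(A) selection, depletion of ribosomal RNA and a ScriptSeq kit named in the labels' protocols. The p-values measure the spread between these mice. RPKM per library, genotype means, a log2 fold change and an adjusted p-value were deposited by the authors, per the file headers. The authors' log2 fold change lay within 0.00941 of the log2 ratio of their RPKM means for every Rik gene. The authors' deposited table goes down to an absolute log2 fold change of 0.6 and up to an adjusted p-value of 0.0099, so it holds selected genes. ΔPSI in percentage points was deposited by the authors for splicing events, per the file headers. Builds mm9 and mm10 are named in the submitters' processing notes, with the aligner, the counting program and its use of strand not stated in any source used. Of 676 cassette exons in annotated genes, 648 had the length of an annotated exon and 17 its mm10 position, so splicing coordinates were read as mm9.

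Rik genes were taken by symbol and matched to RefSeq (GRCm38.p6) by symbol and synonym. Differences were tested over all 988 genes by limma (3.58.1, R 4.3.3) on values of log2(RPKM + 1), a scale that understates changes of low genes, without a block, with BH adjustment and a threshold of 0.05. Ratios were those of mean RPKM, with no pseudocount. The limma step was also tested on simulated data. Alternatives were a pseudocount of 0.1, a mean RPKM of at least 5, a trend in the variance, a replicate block and leaving out each library. The labels name no pairing of mice, so the numbers were not taken to pair them. Same-numbered libraries deviated from their group means with a correlation of -0.33 across genes. Genes of the same 4 libraries vary together, so this value cannot decide whether mice were paired. Described in full are the 10 lowest ratios, every higher gene, the 8 highest and 3 lowest WT levels, the 5 smallest changes, the 5 lowest noncoding ratios, the 5 largest and 5 smallest ratios between the labelled cKO libraries, and all members with splicing events or a known role. Members and lists were chosen with earlier results of these data known. Figures were drawn with matplotlib 3.10.9 in Python 3.11.15.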

Additional observations from a re-analysis of the deposited data

How the results depend on the processing

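The Rik median log2 ratio of -2.33 stayed between -3.15 and -1.90 under every alternative run, and no named gene changed direction. Counts of limma calls with BH adjustment moved more. Leaving out each library gave 123 to 264 lower and 0 to 1 higher Rik genes, against 249 and 1 with all libraries, and 353 to 925 lower and 0 to 63 higher genes of the table, against 829 and 19. Counts of lower genes were higher without a labelled cKO library, where the spread comes from the WT pair alone, and lower without a WT library, where it comes from the labelled cKO pair alone. The lone library is then assumed to vary like the pair. Of the named genes, 22 and 25 lost their call without WT library 1 and WT library 2. The replicate block gave 211 lower and 0 higher Rik genes, and 622 lower and 2 higher genes of the table. Among genes with a mean RPKM of at least 5, 0 Rik genes (1 at an unadjusted p under 0.05) and 5 genes of the table were higher, and a trend in the variance gave 0 higher Rik genes. At an unadjusted p under 0.05 there were also 0 higher Rik genes under the block, under the trend and without either WT library. A crossed pairing of the numbers, chosen after seeing the data, gave 240 lower and 0 higher Rik genes and 758 lower and 10 higher genes of the table. A pseudocount of 0.1 gave 233 and 1. Read counts behind the 72 genes under 1 RPKM in labelled cKO library 2 are unknown, so no counting error is given for them.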

Other observations

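RefSeq and GENCODE M21 disagree on 6 Rik genes, and all 6 were lower in both labelled cKO libraries. RefSeq lists 1700067P10Rik as an lncRNA and GENCODE gives it a coding sequence of 549 nt. It had 4.30 and 0.61 RPKM in the labelled cKO libraries, against 21.3 and 18.4 RPKM in the WT libraries (log2 ratio -3.01). For 1700025B11Rik, with a GENCODE coding sequence of 279 nt, the levels were 3.54 and 0.54 RPKM in the labelled cKO libraries, against 14.2 and 15.2 RPKM in the WT libraries (log2 ratio -2.85). Phf8-ps (4921501E09Rik), a pseudogene in RefSeq, had a log2 ratio of -2.30. In the other direction, 4930571K23Rik is coding in RefSeq only, with 3.81 and 0.83 RPKM in the labelled cKO libraries, against 25.3 and 29.4 RPKM in the WT libraries (log2 ratio -3.56). 1810020O05Rik, also coding in RefSeq only, had a log2 ratio of -2.22.

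The 24 Rik genes with 1 exon in their longest GENCODE transcript had a median log2 ratio of -2.47, beside -2.33 for all Rik genes. Of them 18 were at least 4-fold lower, with 61.1% of all Rik genes and 46.3% of the table past that step. The 8 Rik genes on the X chromosome had a median WT mean of 6.32 RPKM. Their median log2 ratio was -1.95, nearer to 0 than the -2.33 of all Rik genes, beside -1.87 for the table. These groups were looked at after other results were known, and neither was tested against the rest.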
